A study of Mus musculus with 59 samples.

Results

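The genes described here encode the machinery that primes and releases synaptic vesicles. A list of 38 mouse symbols was matched to the 19613 gene rows of the deposited expression table, and 36 of the 38 were found. Syt1, the fast calcium sensor of many synapses, and Erc2, an active zone scaffold, had no row under those symbols and were not analysed here. The 36 genes were read in 6 steps of the vesicle cycle, namely priming factors (5 genes), SNAREs and their disassembly (7), calcium sensors and complexins (7), vesicle proteins (9), active zone scaffolds (4) and endocytosis (4).

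The study used embryoid bodies grown from the mouse embryonic stem cell line HBG3, in which the HB9 (Mnx1) promoter drives a green fluorescent protein, as indicator cells for the serum of ALS model mice. The embryoid bodies were steered towards spinal motor neurons with retinoic acid and a hedgehog agonist, and were incubated for 24 h with mouse serum before RNA was extracted and hybridised to Affymetrix mouse exon arrays. Carrier serum (29 arrays) came from male mice hemizygous for a mutant SOD1 transgene, and non-carrier serum (30 arrays) from littermates without it, all F1 progeny of C57BL/6 and SJL mice. Of the 59 arrays, 53 are labelled 9 weeks and 6 are labelled 10 weeks, which the study's methods tie to the age of the serum donors. The indicator cells themselves carry no SOD1 transgene, so no targeted gene checks the labels. All of them derive from 1 stem cell line. The study counts its serum samples by mice, but no label ties an array to an animal, so p-values measure the spread between arrays.

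In a resting terminal, vesicles are held by synapsins, tethered at the active zone by RIM, Bassoon and Piccolo with the small GTPase Rab3, and made ready for fusion by Munc13 and CAPS proteins, which help the SNARE proteins syntaxin, SNAP-25 and synaptobrevin to assemble. Calcium bound to synaptotagmin or Doc2 proteins triggers fusion, complexins hold and then aid the assembled SNAREs, NSF with its SNAP adaptors takes the SNAREs apart, and dynamin, amphiphysin, AP180 and synaptojanin return the membrane. UNC13A, the human counterpart of Unc13a, is a known ALS risk locus, and the neuromuscular synapse is an early site of change in SOD1 mice.

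Promoter windows show the sequence context of 3 of these genes. Unc13a and Syn1 were picked because their windows hold the rare motif TTCAGCACC, and Sv2c because its level varied most between runs. Each window runs from 250 bases before to 50 bases after the RefSeq start of the gene in build GRCm38.p6, 5′ to 3′ on the strand of the gene, with motif matches in capitals. In Unc13a the capitals mark 2 GC boxes and a match to TTCAGCACC, the left part of the RE1 element that the repressor REST binds in neuronal genes, all read on the opposite strand. In Syn1 they mark TTCAGCACC and the cAMP response element TGACGTCA, and in Sv2c 2 GC boxes on the opposite strand.
Unc13a, chr8:71671708-71672007, minus strand: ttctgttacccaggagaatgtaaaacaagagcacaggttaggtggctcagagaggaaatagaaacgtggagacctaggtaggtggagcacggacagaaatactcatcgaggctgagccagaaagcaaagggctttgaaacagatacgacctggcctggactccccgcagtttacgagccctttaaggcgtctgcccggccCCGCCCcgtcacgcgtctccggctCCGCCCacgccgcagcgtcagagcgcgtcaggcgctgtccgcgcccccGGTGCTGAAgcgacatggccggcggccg
Syn1, chrX:20920869-20921168, minus strand: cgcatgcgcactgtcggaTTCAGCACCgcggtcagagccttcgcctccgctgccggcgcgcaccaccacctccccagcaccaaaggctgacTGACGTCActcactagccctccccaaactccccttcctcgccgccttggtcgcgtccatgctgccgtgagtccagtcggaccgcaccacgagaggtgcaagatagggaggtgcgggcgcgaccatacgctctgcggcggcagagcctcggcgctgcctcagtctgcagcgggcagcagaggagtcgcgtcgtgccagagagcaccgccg
Sv2c, chr13:96132528-96132827, minus strand: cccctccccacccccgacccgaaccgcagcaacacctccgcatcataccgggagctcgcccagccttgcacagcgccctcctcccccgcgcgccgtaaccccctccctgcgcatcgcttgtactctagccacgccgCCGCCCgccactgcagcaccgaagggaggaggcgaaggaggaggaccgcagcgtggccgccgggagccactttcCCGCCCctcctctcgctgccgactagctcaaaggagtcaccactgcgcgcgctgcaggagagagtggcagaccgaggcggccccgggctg

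Of the 36 genes, 29 had a promoter window, and 4 motifs were searched in them on both strands. The GC box GGGCGG, which Sp1-type factors bind, was present in 22 of the 29 windows (75.9%) against 38.2% of the windows of 27025 genes. TATAAA was present in 1 window (3.45%), that of Sv2b, against 15.7% of all windows. TTCAGCACC was found in 2 windows (6.9%), those of Unc13a and Syn1, against 0.433%, and TGACGTCA in 2 (6.9%), those of Napa and Syn1, against 2.03%. A match is a run of letters and not a measured site.

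Before the members are compared, 3 facts of the whole series bear on them. Arrays were taken as 9 runs from their titles, namely a motorneuron-titled run (3 carrier and 4 non-carrier arrays), an HB9MNs-titled run (2 and 2), runs A to F in the order of the numbers in their titles, and the 10-week run. Median intensities of the arrays lay between 151 and 183, and the 1032 olfactory receptor genes, which show what probes without a target read, had a median log2 intensity of 4.53 and a 95th percentile of 6.31. A Grubbs test within runs set apart 1 carrier array of run E (mean correlation with the other arrays of its run 0.979) and 1 non-carrier array of run C (0.990), and values without both are given where they change a call.

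The labelled cell types were present. All 13 neuron markers and all 8 motor neuron markers found in the table had means above the 95th percentile of the olfactory receptors, as did all 12 spinal progenitor and all 8 dividing cell markers, whereas this held for 5 of 6 astrocyte, 3 of 7 pluripotent cell, 1 of 5 red blood cell and 5 of 10 mesoderm and endoderm markers. Of the 36 release genes, 35 had a mean over all arrays above that percentile, and Cadps2, at 5.63, did not. Sv2b and Unc13c came near it, with run means as low as 6.25 (Sv2b, motorneuron run) and 6.17 (Unc13c, HB9MNs run). The embryoid bodies are mixtures, so fewer neurons and less RNA per neuron cannot be told apart in any value below.

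The first question was whether carrier serum moved these genes. With the run as a block, the limma fit called 0.683% of the 19613 genes higher and 1.65% lower at an adjusted p under 0.05. Of the 36 release genes it called 1 higher, Snap25, and 0 lower. Before adjustment 11 of the 36 had a p under 0.05 (7 higher and 4 lower), against 20.7% of all genes. In sign, 16 of the 36 were higher and 20 lower with carrier serum, while 11984 of the 19613 genes and 6407 of the 13087 above the 95th percentile of the olfactory receptors were higher. Their median change was -0.0066 on the log2 scale, against 0.016 over all genes and -0.0011 over the 13087, and the median size of a change was 0.035, against 0.039 and 0.031.

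**Figure D1:**
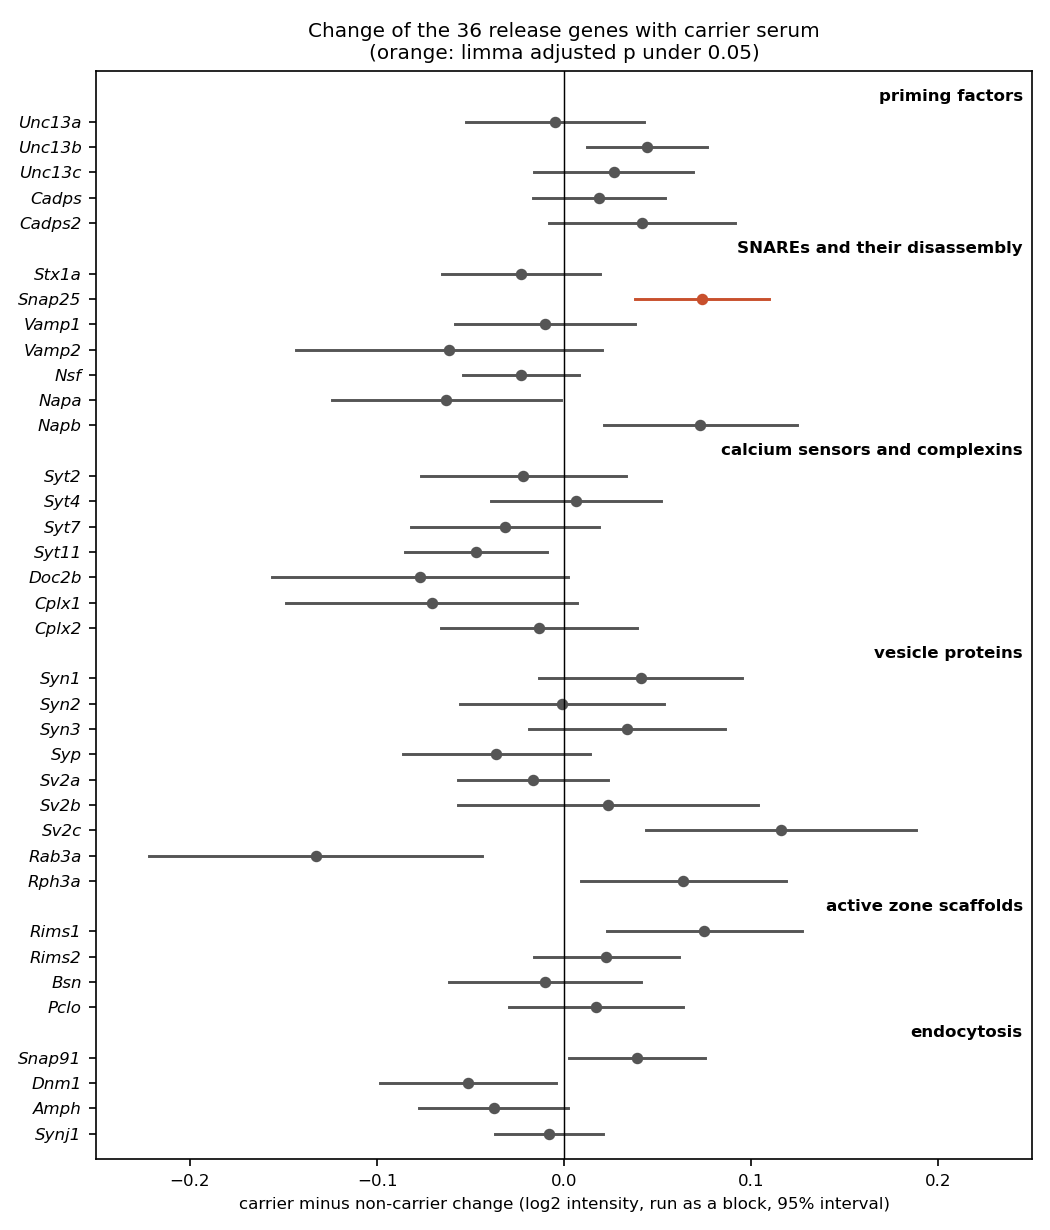
Carrier minus non-carrier change of each of the 36 release genes on the log2 scale (x axis), grouped by step (y axis), as the limma estimate with its 95% interval over 59 arrays. Snap25, in orange, is the member past the threshold, and estimates run from -0.13 (Rab3a) to 0.12 (Sv2c).

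Priming factors came first because the study listed a priming set of Unc13a, Unc13b, Cadps and Cadps2. The study reports synaptic vesicle priming among the up-regulated gene sets of a classifier. It scored genes as a set, after a correction based on motor neuron genes. The changes below are of single genes with the run as a block, so they do not test the reported rise of the set. The study chose that set on its training arrays, which are part of the arrays used here. The values of the set here are therefore not independent evidence of a direction. None of the 5 priming genes passed the threshold, 4 had positive and 1 a negative change, and the median over the step was 0.026.

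Unc13a encodes Munc13-1, the main priming factor of glutamatergic and neuromuscular terminals. Its log2 intensity ran from 8.96 through a median of 9.57 to 9.97 over the 30 non-carrier arrays and from 8.96 through 9.59 to 9.94 over the 29 carrier arrays. The groups covered the same range. The change was -0.0051 (SE 0.024, limma adjusted p 0.916) with a 95% interval from -0.053 to 0.042, so that a change of the size seen for Snap25 lay outside the interval. Its sign turned in 9 of 20 alternative analyses.

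Unc13b encodes Munc13-2, a priming factor with a more restricted use among synapses. Non-carrier arrays ran from 9.20 through 9.43 to 9.63 and carrier arrays from 9.25 through 9.51 to 9.65. The ranges overlapped almost fully, while the median was higher with carrier serum. The change was 0.044 (SE 0.016, limma adjusted p 0.112), or 3.12% on the linear scale, and it was positive in 7 of 9 runs. In run D the 4 non-carrier arrays lay between 9.45 and 9.49 and the 3 carrier arrays between 9.54 and 9.58, whereas in run F both groups lay between 9.50 and 9.57. Unc13b passed the threshold in 3 of 20 alternatives, among them quantile normalization (adjusted p 0.0404).

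The intervals of the remaining priming genes included 0. Cadps, encoding the CAPS1 protein that primes dense-core vesicles, ran from 9.72 through 9.96 to 10.21 with non-carrier and from 9.63 through 10.00 to 10.24 with carrier serum, a change of 0.019 (SE 0.018, limma adjusted p 0.537). Its paralogue Cadps2 lay from 5.42 through 5.60 to 5.81 and from 5.38 through 5.68 to 5.82, a change of 0.042 (SE 0.025, limma adjusted p 0.324) at a level within the range of the olfactory receptors, and it turned to -0.015 after quantile normalization. Unc13c, a Munc13 best known from the cerebellum, changed by 0.026 (limma adjusted p 0.464).

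Among the SNAREs and the proteins that take them apart, Snap25 rose and the other 6 genes did not pass the threshold. Snap25 encodes the plasma membrane SNARE that contributes a pair of helices to the fusion complex. Its log2 intensity ran from 11.31 through 11.66 to 11.85 over the non-carrier arrays and from 11.40 through 11.70 to 11.94 over the carrier arrays. The groups overlapped over most of their range, because runs differed by more than the serum groups did. Within runs the carrier arrays lay wholly above the non-carrier arrays in the HB9MNs run, run A, run B and the 10-week run. The groups overlapped in the motorneuron run and in runs C, D, E and F. The difference was largest in run A (0.16), where the non-carrier arrays read 11.64, 11.66 and 11.78 and the carrier arrays 11.82, 11.85 and 11.89.

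The 10-week run stood lower as a whole and kept the order, with Snap25 at 11.31, 11.33 and 11.39 with non-carrier serum and 11.40, 11.46 and 11.47 with carrier serum. The fitted Snap25 change was 0.074 (SE 0.018, limma adjusted p 0.0166), or 5.24% with a 95% interval from 2.67% to 7.87%. It was positive in 8 of 9 runs and negative in run F, where the 3 non-carrier arrays read 11.58, 11.65 and 11.66 and the carrier arrays 11.58, 11.60 and 11.63. Leaving out run A, run B or the 10-week run ended the call (adjusted p 0.0735, 0.0589 and 0.0727) with changes of 0.064, 0.069 and 0.071, and centring each array on its median gave 0.066 with an adjusted p of 0.0768.

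Napb encodes beta-SNAP, the neuronal adaptor of NSF. It ran from 9.27 through 9.98 to 10.27 with non-carrier serum and from 9.40 through 10.04 to 10.33 with carrier serum, overlapping throughout, and its change was 0.073 (SE 0.026, limma adjusted p 0.106), past the threshold in 1 of 20 alternatives. The change was positive in 7 of 9 runs and was 0.16 in the HB9MNs run, where the non-carrier arrays read 10.02 and 10.09 and the carrier arrays 10.21 and 10.23. The ubiquitous adaptor Napa had the opposite sign, with -0.063 (limma adjusted p 0.228) and 6 of 9 runs negative, run E only through the carrier array that the Grubbs test set apart. Nsf itself changed by -0.023 (limma adjusted p 0.384).

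The partners of Snap25 in the fusion complex did not share its direction. Stx1a, syntaxin 1A, changed by -0.023 (limma adjusted p 0.525), Vamp2, the main vesicular SNARE of the forebrain, by -0.062 (adjusted p 0.376), and Vamp1, the vesicular SNARE of spinal and neuromuscular terminals, by -0.010 (adjusted p 0.820). These 3 differences from Snap25 were not tested as such.

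Calcium sensors and complexins held the step with the most negative changes: 6 of its 7 genes had a negative sign, with a median of -0.032, and 0 passed the threshold. Syt11, a synaptotagmin whose C2 domains do not bind calcium in the usual way, changed by -0.047 (limma adjusted p 0.155) and was lower in 8 of 9 runs. In run E it was lower only through the carrier array that the Grubbs test set apart. Doc2b, a high-affinity calcium sensor of spontaneous release, ran from 7.16 through 7.47 to 8.11 with non-carrier and from 6.73 through 7.40 to 8.08 with carrier serum, a change of -0.077 (SE 0.039, limma adjusted p 0.251). In run A its non-carrier arrays read 7.64, 7.76 and 7.77 and its carrier arrays 7.38, 7.63 and 7.69, overlapping at 1 value, and run C gave a change of the other sign (0.066).

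The other members of this step did not pass the threshold either. Syt2, the fast sensor of spinal and neuromuscular synapses, changed by -0.022, Syt7, a sensor of slow release, by -0.032, and Syt4, a calcium-independent synaptotagmin of dense-core vesicles, by 0.0062. Cplx1, the complexin that dominates in spinal and brainstem neurons, changed by -0.071 (limma adjusted p 0.283), with -0.30 within run C, and Cplx2 by -0.014.

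Vesicle proteins gave the extremes in both directions, Sv2c and Rab3a, and 0 of 9 passed the threshold. Sv2c is a vesicle glycoprotein and a receptor of botulinum neurotoxin A. It ran from 7.68 through 9.16 to 9.44 with non-carrier serum and from 7.74 through 9.32 to 9.75 with carrier serum. The change was 0.12 (SE 0.036, limma adjusted p 0.0651), or 8.37%, with positive values in 7 of 9 runs. In the 10-week run the non-carrier arrays read 9.03, 9.18 and 9.28 and the carrier arrays 9.35, 9.38 and 9.45, and in run C the carrier arrays spread from 9.16 to 9.52 around the 9.18 to 9.44 of the non-carrier arrays. Sv2c passed the threshold in 4 of 20 alternatives, among them leaving out dim genes, which shortens the list adjusted over (adjusted p 0.0346), and leaving out the motorneuron run (0.00814).

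Rab3a encodes the vesicle GTPase that links vesicles to RIM. Its log2 intensity ran from 9.81 through 10.30 to 10.64 over the non-carrier arrays and from 8.93 through 10.21 to 10.53 over the carrier arrays, and the change was -0.13 (SE 0.044, limma adjusted p 0.0882), lower in 9 of 9 runs, and past the threshold in 4 of 20 alternatives. In run D the non-carrier arrays read 10.36, 10.36, 10.37 and 10.38 and the carrier arrays 10.03, 10.16 and 10.34, all below them. The lowest value, 8.93, belongs to the carrier array of run E that the Grubbs test set apart. The other carrier arrays of that run had a Rab3a mean of 10.07, above the mean of its non-carrier arrays. The negative sign in run E, and with it the count of 9 of 9, therefore rests on 1 array.

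That array was the lowest of all 59 for 10 of the 36 genes, Rab3a, Napa, Vamp2, Syp, Stx1a, Syt11, Doc2b, Bsn, Pclo and Dnm1, and the highest for 3, Unc13b, Sv2b and Sv2c. The same count over all genes of the table was not made, so these numbers do not set the release genes apart from other genes. Without that array and the array of run C set apart, Rab3a changed by -0.096 (SE 0.028) with a limma adjusted p of 0.0438 and thus passed the threshold. In the same 57 arrays Snap25 kept its call with 0.067 (adjusted p 0.0254), Sv2c gave 0.10 (adjusted p 0.0821), and Unc13b 0.032 (adjusted p 0.146). The table as a whole then had 320 genes called higher and 396 lower.

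The other vesicle proteins had changes within their intervals around 0 or did not survive adjustment. Rph3a, rabphilin, an effector of Rab3, changed by 0.064 (limma adjusted p 0.181), opposite in sign to Rab3a. The synapsins, which tether vesicles to each other and to actin, gave 0.041 (Syn1), -0.0011 (Syn2) and 0.034 (Syn3). Syp, the abundant vesicle membrane protein synaptophysin, changed by -0.036, Sv2a by -0.017 and Sv2b by 0.023.

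**Figure D2:**
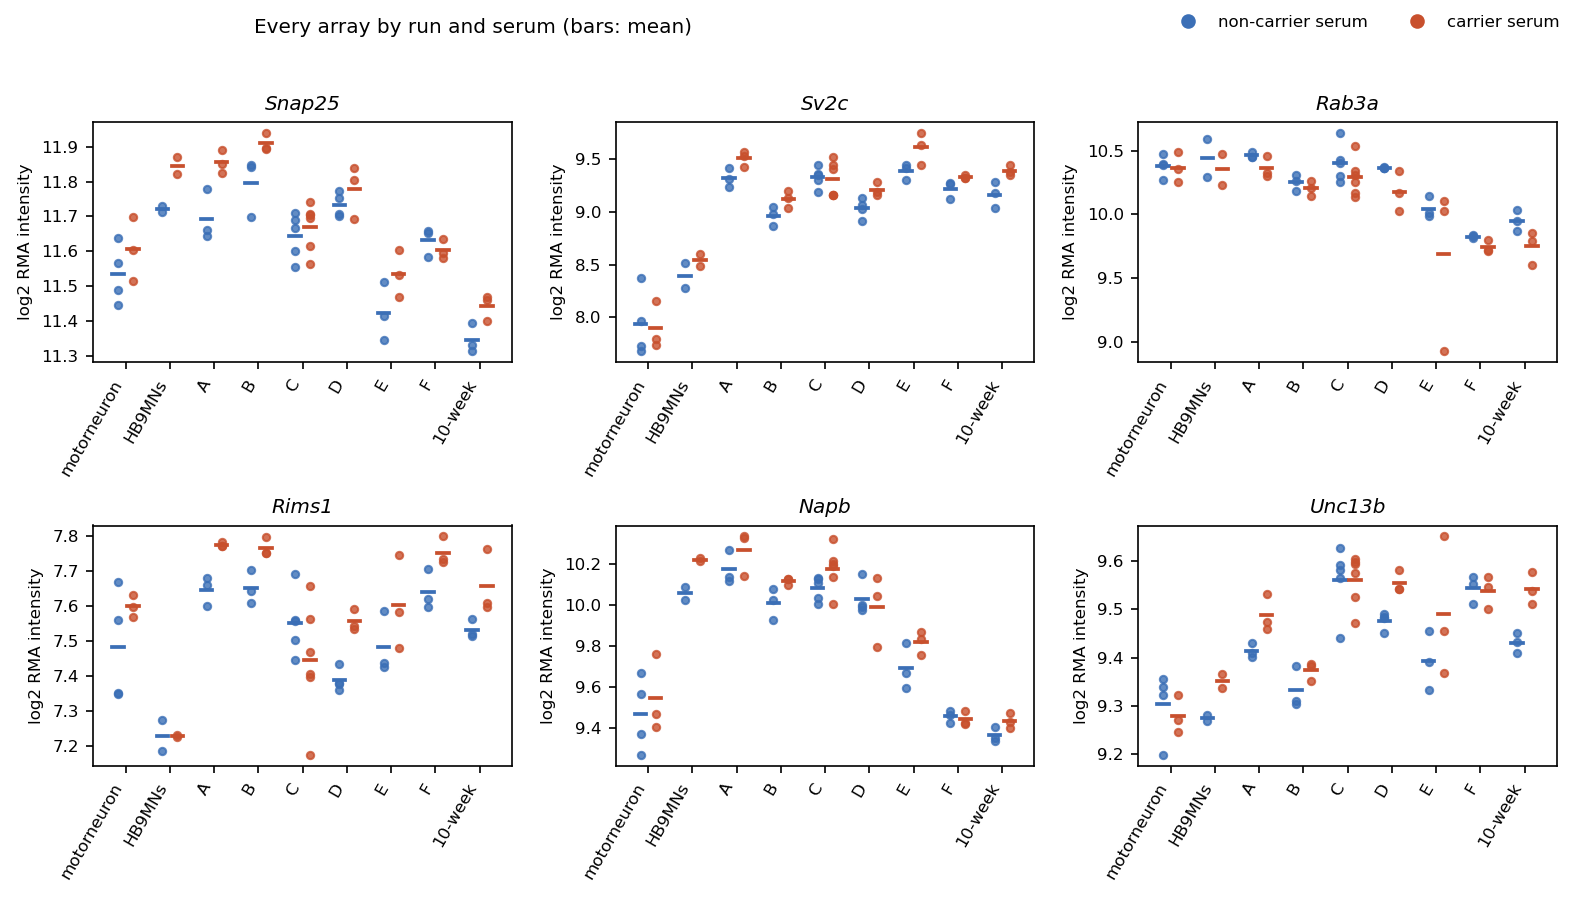
Log2 RMA intensity (y axes) of the 6 members with the smallest p in the carrier comparison, by run (x axes), with each array as a point, non-carrier serum in blue, carrier serum in orange and bars at the group means. Snap25 shows carrier means above non-carrier means in 8 of 9 runs, and the low Rab3a point in run E, at 8.93, is the array set apart.

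At the active zone, Rims1 had the largest estimate and 0 of 4 genes passed the threshold. Rims1, the scaffold that binds Rab3, Munc13 and calcium channels, ran from 7.19 through 7.56 to 7.71 with non-carrier and from 7.18 through 7.60 to 7.80 with carrier serum, a change of 0.075 (SE 0.026, limma adjusted p 0.10). Its change was positive in 7 of 9 runs, between 0.11 and 0.17, near 0 in the HB9MNs run (-0.00066) and -0.11 in run C, where carrier arrays spread from 7.18 to 7.66. In run A the 3 carrier arrays lay between 7.77 and 7.78, above the non-carrier arrays at 7.60, 7.66 and 7.68. Rims1 passed the threshold in 4 of 20 alternatives, among them run C parted into 2 blocks (adjusted p 0.0442).

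Pclo, Piccolo, read from 9.20 through 9.58 to 9.97 and from 9.14 through 9.62 to 9.93, a change of 0.017 (limma adjusted p 0.684). Bsn, Bassoon, changed by -0.010 and Rims2 by 0.023. Of the endocytosis genes, 3 of 4 had negative changes and 0 passed the threshold. Dnm1, the dynamin that pinches off vesicles, ran from 8.89 through 9.33 to 9.67 with non-carrier and from 8.60 through 9.29 to 9.55 with carrier serum, a change of -0.051 (SE 0.024, limma adjusted p 0.205) that was negative in 8 of 9 runs. In run E the negative sign of Dnm1 rests on the carrier array set apart. Amph gave -0.038, Synj1 -0.0082, and Snap91, the clathrin adaptor AP180, 0.039 (limma adjusted p 0.212).

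Neuronal markers moved little in sum. The mean of the 13 neuron markers changed by 0.0029 (SE 0.0089), ranging over arrays from 11.43 to 11.67 with carrier and from 11.40 to 11.65 with non-carrier serum, and the mean of the 8 motor neuron markers by 0.017 (SE 0.017), from 9.18 to 9.60 and from 9.15 to 9.56. The sign of the change was positive for 6 and negative for 7 of the 13 neuron markers, and positive for 4 and negative for 4 of the 8 motor neuron markers. The 12 spinal progenitor markers changed by -0.037 (SE 0.016), the 8 dividing cell markers by 0.033 (SE 0.023), and the 6 astrocyte markers by -0.011 (SE 0.017). Positive list changes came from the 10 mesoderm and endoderm markers, at 0.053 (SE 0.027) and with 10 of 10 higher in sign, the 5 red blood cell markers, at 0.053 (SE 0.031) and with 5 of 5, and the 7 pluripotent cell markers, at 0.039 (SE 0.029) and with 5 of 7. Among the neuron and motor neuron markers the limma fit called Nefl, neurofilament light (0.058, adjusted p 0.0250), Stmn2, stathmin 2 (0.061, adjusted p 0.0400), and Slc5a7, the choline transporter of motor neurons (0.15, adjusted p 0.0410), higher and none lower, and of the other lists it called the astrocyte glutamate transporter Slc1a2 lower (-0.068, adjusted p 0.0307). The part of these cell types in the serum comparison of the release genes was not tested, and markers entered it only as covariates in 2 of the alternative fits beside the run. With the neuron marker mean as a covariate beside the run, Snap25 changed by 0.070 (adjusted p 0.00548) and Rab3a passed the threshold as well. With Olig2, Mnx1, Isl1 and Lhx3 beside the run instead, Snap25 changed by 0.077 (limma adjusted p 0.0067). In that fit 7 of the 36 release genes and 6126 of the 19613 genes passed the threshold.

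**Figure D3:**
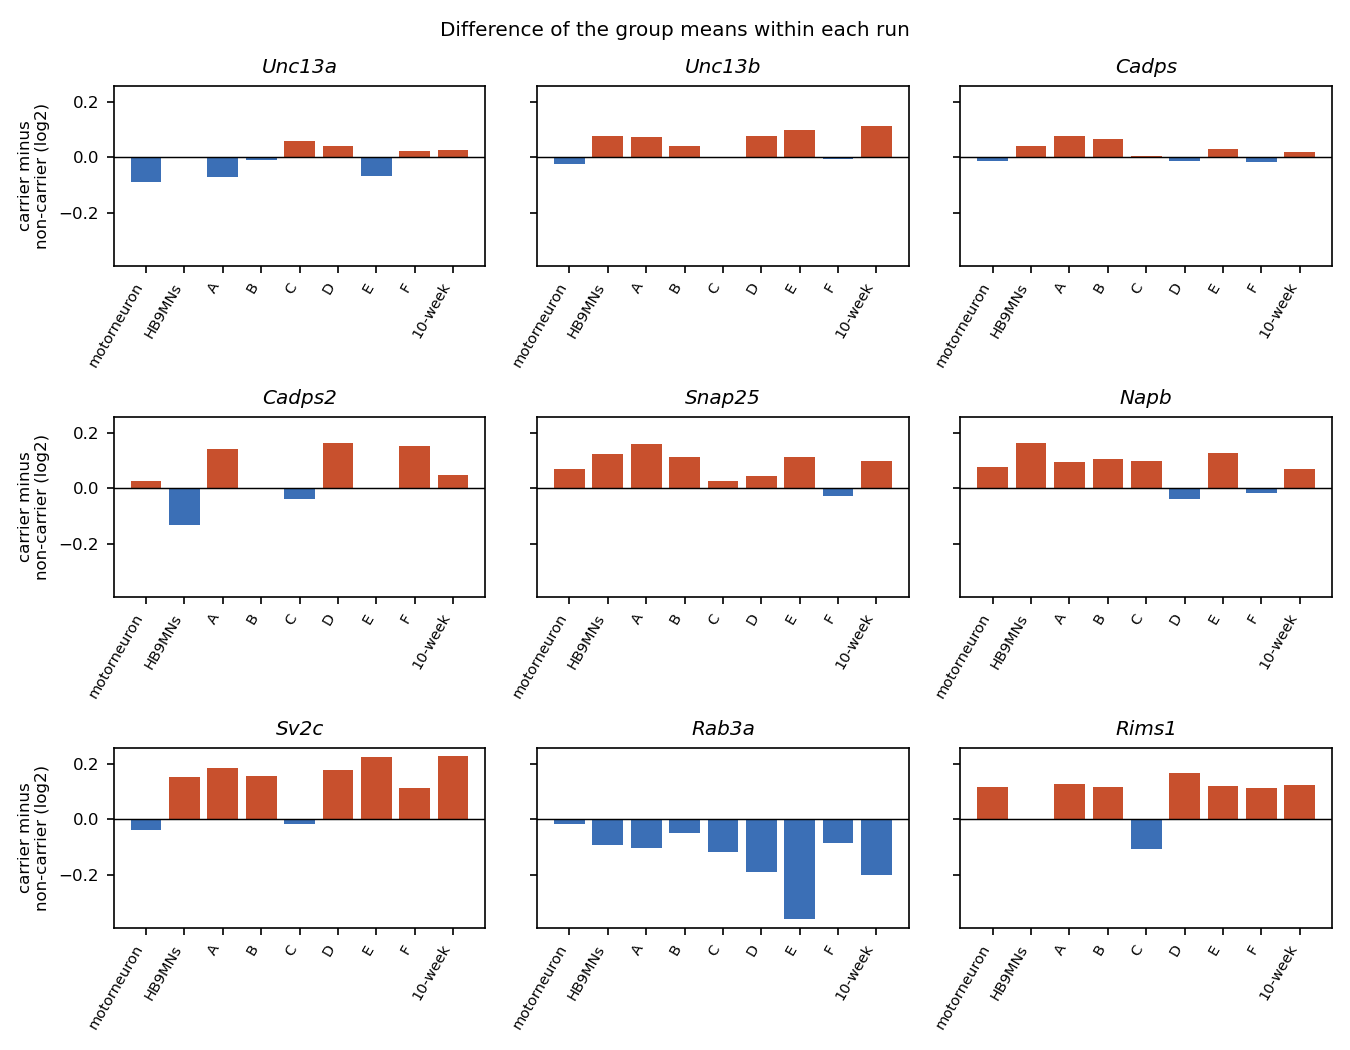
Difference of the carrier and non-carrier means within each of the 9 runs (x axes) on the log2 scale (y axes, the same in every panel) for 9 release genes, orange where carrier serum was higher and blue where it was lower. Rab3a is below 0 in 9 of 9 runs, in run E only through the carrier array set apart. Snap25 is above 0 in 8 runs, while Unc13a changes sign from run to run.

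The second question was whether the response differed between runs. The limma test of the run by serum interaction called 25 genes of the table (0.127%) and 0 of the 36 release genes. Before adjustment 7.94% of all genes and 2 of the 36 had a p under 0.05. These were Sv2b (unadjusted p 0.00437, adjusted p 0.365), whose change was -0.32 in run C and positive in the other 8 runs, up to 0.26 in run A, and Syt4 (unadjusted p 0.0157, adjusted p 0.508), which gave 0.19 in the motorneuron run and -0.20 in run B. In run C the change was negative for all of the 36 genes except Unc13a, Unc13b, Unc13c, Cadps, Snap25, Napb, Doc2b and Rims2. The share of negative changes over all genes in that run was not counted. Rims1 (-0.11) and Sv2c (-0.017) were also negative there, and neither was under 0.05 in the test of the difference.

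The third comparison was of the runs themselves. The limma test over the 8 run terms called 94.0% of all genes and 36 of the 36 release genes. Between-run differences made up 74.0% of the variance of the median release gene, from 44.8% (Cadps2) to 92.3% (Sv2c), against 62.5% for the median gene of the table and 68.8% for the median gene above the 95th percentile of the olfactory receptors. The runs were read from array titles, and the labels give no culture batch, date or array handling. Effects of culture, time and array handling therefore cannot be told apart. The labelled age, which the study's methods tie to the serum donors, also differs between some runs. What sets the runs apart was not tested.

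Sv2c and Sv2b varied most. The run means of Sv2c went from 7.92 in the motorneuron run and 8.47 in the HB9MNs run to 9.50 in run E, a range of 1.58, and the other 6 runs lay between 9.04 and 9.41. In the motorneuron run its 7 arrays read from 7.68 to 8.37, below every array of the runs A to F and the 10-week run. Sv2b, its paralogue, went from 6.25 in the motorneuron run to 7.36 in run E, a range of 1.12. Its lower end lies below the 95th percentile of the olfactory receptors (6.31). Sv2a, the family member of most synapses, ranged over 0.42, from 8.89 in the 10-week run to 9.30 in run A.

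In the other steps the widest ranges were those of Doc2b (0.94, from 7.10 in run E to 8.03 in the HB9MNs run), Napb (0.82, from 9.40 in the 10-week run to 10.22 in run A), Unc13a (0.76, from 9.08 in the motorneuron run to 9.83 in run A), Dnm1 (0.64, from 8.93 in run E to 9.57 in run A) and Pclo (0.63, from 9.25 in run E to 9.88 in run A). Unc13a arrays of the motorneuron run lay between 8.96 and 9.25, and those of run A between 9.70 and 9.90, without overlap. The run means of Rab3a were 9.79 to 9.87 in runs E, F and the 10-week run and 10.23 to 10.41 in the other 6. The mean of run E is lowered by the carrier array set apart, at 8.93, where the other carrier arrays of that run had a mean of 10.07.

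Run A was the highest run for 19 of the 36 genes (52.8%), a pattern noticed after the data were seen and given without a test. Over all genes this was the case for 6.44%, and over the 13087 genes above the 95th percentile of the olfactory receptors for 8.32%. The release genes in run A lay above the mean of the other runs for 33 of 36, with a median difference of 0.19, against 55.2% and a median of 0.017 over all genes. By step, run A was the highest for 5 of 7 SNARE genes, 6 of 9 vesicle proteins, 3 of 7 calcium sensors and complexins, 2 of 5 priming factors, 2 of 4 scaffolds and 1 of 4 endocytosis genes. The motorneuron run, by contrast, was the highest for 48.9% of all genes and for 2 of the 36.

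Marker lists differed between the runs too. The neuron marker mean spanned 11.47 to 11.64 over the runs and was 11.56 in run A, while the motor neuron marker mean (9.21) and the dividing cell marker mean (8.68) were lowest in run A and the astrocyte marker mean was highest there (7.83). Of the individual markers, run A was the highest run for 2 of 13 neuron, 0 of 8 motor neuron, 0 of 8 dividing cell and 3 of 6 astrocyte markers. The part of these cell types in the levels of the release genes was not tested.

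**Figure D4:**
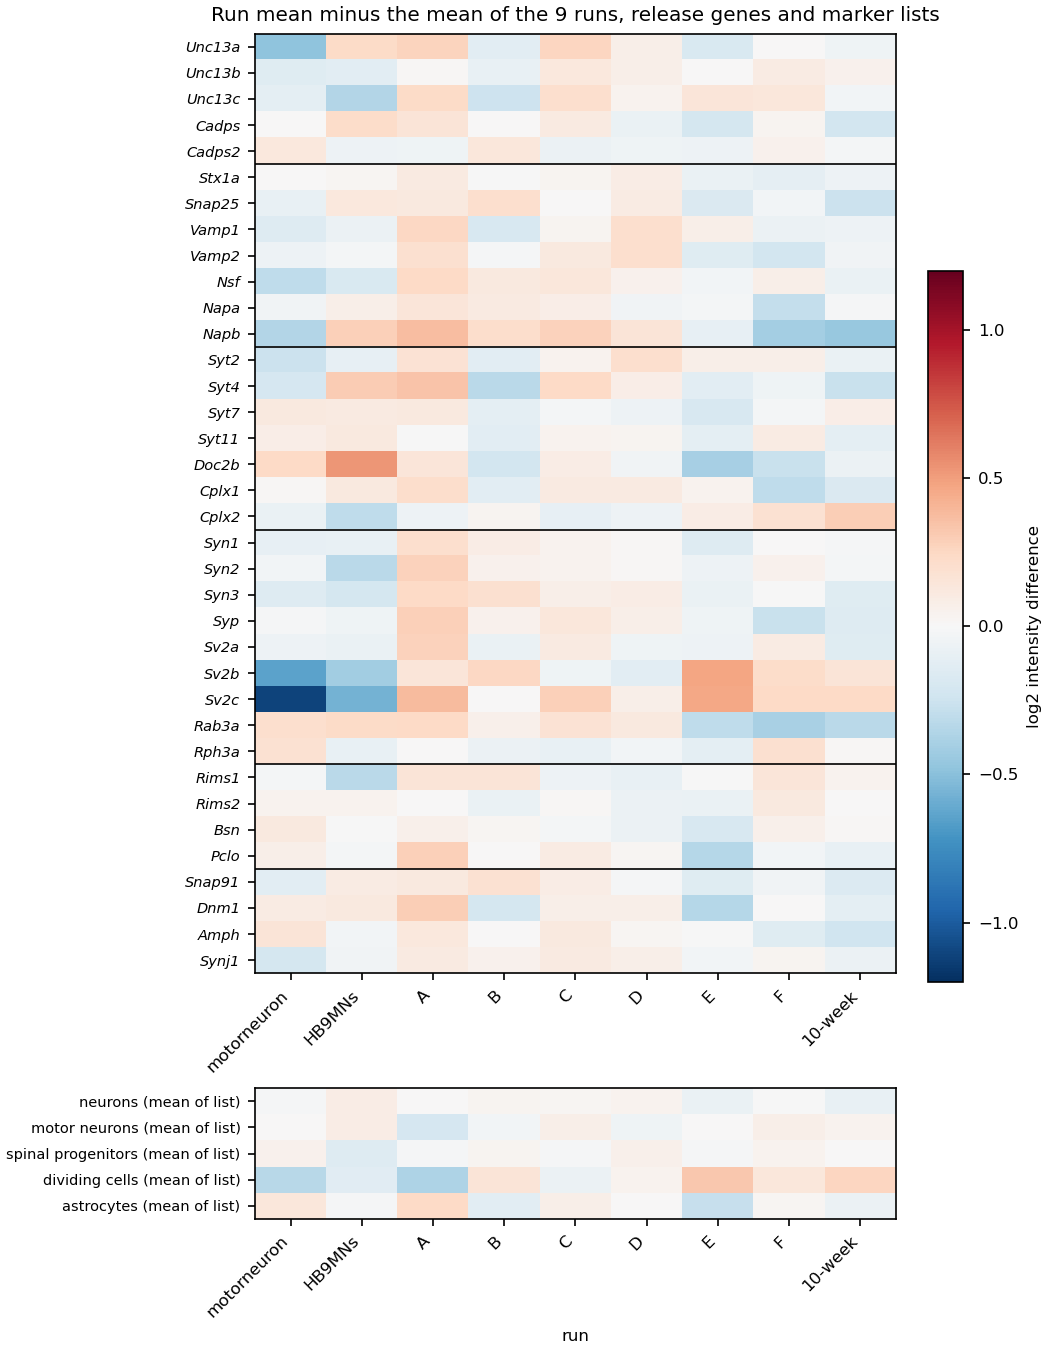
Run mean of each release gene (rows, grouped by step) minus the mean of its 9 run means, as colour on the log2 scale, for the 9 runs (columns), with the means of 5 marker lists below on the same scale. Run A is the highest run for 19 of 36 genes, and the motorneuron run is low for Sv2b, Sv2c and Unc13a.

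Beyond the 36 genes, 84 further genes of vesicle release were found of 89 listed. Carrier serum raised 2 of them and lowered 1 by the limma fit. Over all genes these shares were 0.683% and 1.65%. Before adjustment 24 were under 0.05 (16 higher and 8 lower), against 20.7% of all genes. Sncg, the vesicle-associated gamma-synuclein, rose by 0.10 (SE 0.021, adjusted p 0.00507) and was higher in 9 of 9 runs. Erc1, an active zone scaffold of the ELKS family, rose by 0.080 (SE 0.022, adjusted p 0.0402) and was higher in 7 of 9 runs. Rims3, a short RIM-related active zone protein without the Rab3-binding part, fell by 0.14 (SE 0.032, adjusted p 0.0155) and was lower in 9 of 9 runs. The median change over the 84 genes was 0.0097, and run A was the highest run for 21 of them (25%).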

How the data were processed

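The 59 arrays hold 29 exposures to carrier and 30 to non-carrier serum. The authors deposited intensities, not logarithms, made with RMA in the aroma.affymetrix package, taking the mean of all exons of an annotated transcript as the value of a gene, after removing arrays called by Grubbs' test; the submitters' processing notes also name Affymetrix Expression Console. Whether exons were averaged on a log scale and on which genome build is not given in the sources used here. The authors later corrected for 4 motor neuron genes, a step not repeated because its 12 reference arrays are not identified in the labels.

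Intensities were taken to log2 with 0 added and fitted over all 19613 genes with limma 3.58.1 in R 4.3.3 (lmFit, eBayes), with the run as a block. Tests were two-sided, p-values were adjusted by Benjamini-Hochberg across the whole table, and adjusted p under 0.05 was called. Moderated F tests covered the 8 run terms and the 8 run by serum terms. No gene was filtered. Runs were read from array titles, as the labels give no batch, and the 11 arrays of run C exceed the batch sizes of the methods. Files give no depth, so the number of arrays limits the precision. Fits were tested on simulated data.

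The members and lists were chosen with earlier results of these data known. Named members are those past the threshold, the 6 with the smallest p, the study's priming set, and the member with the widest range of run means in each step. Alternatives changed the block, the covariates, the scaling, the filter, the variance model and the arrays or runs included. Promoter windows come from RefSeq (GRCm38.p6). Hyphens in symbols are written as dots in the table and were matched so.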

Additional observations from a re-analysis of the deposited data

Results flagged for a closer look

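Within each run and serum group of 4 to 10 arrays, the highest and lowest array of each release gene was set against its neighbour by Dixon's criterion, and 5 groups stood out, 3.47% of those examined, where chance alone gives about 1 in 20, so the number is no larger than chance gives. In the 5 non-carrier arrays of run C, 1 array had an Unc13c log2 intensity of 6.51 with its nearest neighbour at 6.71, and this is the array of that run that the Grubbs test set apart. Another non-carrier array of run C was the highest for both Vamp2, at 11.22 with the next at 10.87, and Pclo, at 9.87 with the next at 9.71. In the 4 non-carrier arrays of run D, 1 array had a Napb value of 10.15 with the next at 10.00, and another had a Synj1 value of 9.27, 0.026 from its nearest neighbour at 9.24. Groups of 3 or 2 arrays, which make up most runs, were not examined this way.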

How the results depend on the processing

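The number of release genes called with carrier serum, 1 of 36, depended on the model, whereas in the 5 alternatives run for them (centring, quantile normalization, dim genes left out, the variance model, and both arrays set apart removed) the test of the run called every member tested (36, or 31 with dim genes left out) and the interaction 0. It was 0 without a block, 0 with 4 motor neuron genes in place of the run, 7 with these genes beside the run (Snap25, Syn1, Syn2, Syn3, Rph3a, Rims1 and Amph, with 6126 genes called in all), 0 with arrays centred on their median, 2 with run C in 2 blocks, the neuron marker mean as covariate, quantile normalization, dim genes left out or both arrays set apart removed, and 9 with array weights, where 2803 genes were called in all against 457. Leaving out each run in turn gave 0 to 5 members (0 without run A, run B or the 10-week run, 5 without run C, where 1601 genes were called in all) and 0 to 9 of the further release genes. For those, the count of 3 went to 0 without a block and with the 4 genes in place of the run, 21 with them beside it, 5 with run C in 2 blocks or dim genes left out, and 12 with array weights. Among the called genes of the whole table, 29.3% were higher, against 40.5% after quantile normalization, 44.7% without the arrays set apart, 48.6% with array weights, and 64.5% and 7.41% with the 4 genes beside and in place of the run; leaving out a run gave 19.5% to 42.7%. Snap25 was positive in each of 20 alternatives, from 0.058 to 0.085, and called in 14, with adjusted p 0.995 without a block and 0.467 with the 4 genes in place of the run. Unc13a had no stable sign: 0.018 without a block, 0.030 and 0.038 with the 4 genes beside and in place of the run, 0.012 after quantile normalization, 0.0067 with array weights, 0.0059 without the arrays set apart, and -0.020 to 0.0060 with a run left out. Cadps2 turned to -0.015 after quantile normalization and Dnm1 to 0.019 with the 4 genes in place of the run. Of these 4 covariate genes, 3 had themselves an unadjusted limma p under 0.05 for serum in the main fit, against 20.7% of all genes, and 0 passed the threshold. The causes were not tested. The replicate letters A and B are shared between groups in the HB9MNs run, where they were not examined as pairs. Replicate numbers are shared between groups in the motorneuron and 10-week runs. Deviations of same-numbered arrays correlated at -0.13 to 0.26, not every pair above 0.1, so the numbers were not taken as pairs, and in these runs 0 members and 0 further genes were called with or without a replicate block (Snap25 0.070, adjusted p 0.679 with the block). The number of arrays sets the precision, and Cadps2 lies within the range of unexpressed genes.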
